A study of Mus musculus with 4 samples.

Results

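Cux2 superficial intratelencephalic neurons are taken here as the cells of mouse prefrontal cortex (PFC) that carry Cux2 RNA together with that of the excitatory neuron factors Neurod2 or Neurod6. In single-cell RNA counts of 4 ages (postnatal days P1, P4 and P10, and Adult, P84), cells were kept where they held 1000 or more unique molecular identifiers (UMIs, each counting 1 captured RNA molecule), 1000 or more genes and no more than 15% of UMIs from the mitochondrial genome. A member held at least 1 UMI of Neurod2 or Neurod6, under 1 UMI per 10000 of Gad1 and Gad2 together, at least 1 per 10000 of Cux2 and under 1 per 10000 of Rorb, with no UMI of Fezf2, Eomes or Foxp2. This gave 2927 members among 59918 cells, of which the P1 library held 602, P4 942, P10 702 and Adult 681. The mice were C57BL/6J (C57BL/6 in the labels). The methods name only females, though the P1 library held Y-linked RNA (below). There were 2 mice per age that the cells were not traced to, no further genotype or treatment, and 1 library per age on the BD Rhapsody system. Adult mice were 84 days old. Brain slices were placed in an ice-cold solution that held actinomycin D, an inhibitor of transcription. PFC tissue was then digested with protease and papain in a buffer that is not said to hold it. Because each age is a single library, differences between ages stand without replicates and without a test. Intervals are 95%, exact unless said otherwise, and cover counting error only.

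Intratelencephalic (IT) neurons are glutamatergic projection neurons whose axons stay within the cortex and striatum, including those that cross the corpus callosum to the other hemisphere. Those of layers 2 and 3 express the homeodomain factors Cux1 and Cux2 and the POU factors Pou3f2 and Pou3f3, are born late, and migrate past older neurons to reach the upper cortex. After birth they extend axons and dendrites, form synapses and adjust receptors and channels as the circuit matures.

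The 4 libraries were not alike. The P1 library was processed with a later version of the pipeline than the other 3 and with the exclusion of intronic reads switched off, a setting not given for the others. Its file header names the library P0 while its labels give P1, so that its age in days is not certain. UMIs of Y-linked genes stood at 95.2 CPM (UMIs scaled to a total of 1000000) in the P1 members and between 0.0850 and 0.172 CPM in those of the other ages, although the methods name only females. P1 values are therefore given beside the others, and no gene was ranked by them. Cell barcodes present in more than 1 library numbered 256 to 323 for pairs among P4, P10 and Adult and 10 to 20 for pairs with P1, and 2 barcodes were members in both P10 and Adult. Libraries held between 200198548 and 340724049 UMIs. In order of age, the median member had 25416, 13584.5, 22985 and 17999 UMIs and 5737.5, 4499.5, 5778.5 and 5100 genes.

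Cux2 (chromosome 5, 121856366 to 122050102, in the GENCODE M21 annotation of build GRCm38), Rorb, Neurod2, Neurod6, Gad1, Gad2, Fezf2, Eomes and Foxp2 are the genes that the members were chosen by, so their levels are a description of the rule. The median Cux2 level in order of age was 1.93, 1.70, 1.64 and 1.88 UMIs per 10000. Just inside the limit, the lowest member of each age held 1.0007 to 1.00492 per 10000, and the highest cell just outside it 0.996214 to 0.99985. Between 1 and 1.5 per 10000 lay 198, 363, 284 and 216 members in order of age, and 278, 576, 363 and 223 cells that met every other condition lay between 0.5 and 1. A single Cux2 UMI sufficed for 13 members at P1, 238 at P4 and 78 at P10, and for 70 adult members, so the rule rested on single UMIs most often at P4.

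Among glutamatergic cells the share of members was 6.62% [6.12 to 7.15] (P1), 6.76% [6.35 to 7.19] (P4), 7.60% [7.07 to 8.16] (P10) and 9.45% [8.79 to 10.2] (Adult). Glutamatergic cells are those that meet the Neurod and Gad conditions, 39466 in all. Of all cells, members were 5.21%, 4.95%, 4.597% and 4.83%. Since the rule reads single UMIs, cells of 4000 UMIs or more were also thinned to 4000 UMIs. They numbered 11482 of 11545, 17894 of 19014, 13315 of 15272 and 11233 of 14087 cells in order of age. Shallower cells were left out, and unequally between ages. The shares were then 8.26%, 7.12%, 8.63% and 8.61% in order of age, and the order of the ages was not kept. Among glutamatergic cells with Cux2 at the limit, the Fezf2 condition set aside 441, 416, 398 and 316 cells, the Rorb condition 307, 184, 153 and 262, the Foxp2 condition 274, 135, 90 and 66, and the Eomes condition 204, 10, 3 and 0.

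The label was checked against marker lists that the rule did not use. Markers of superficial IT neurons (Cux1, Pou3f2, Pou3f3, Lhx2, Calb1, Wfs1, Lamp5 and 8 others) summed to a median of 22.9 (P1), 15.2 (P4), 16.9 (P10) and 23.8 (Adult) UMIs per 10000 in members. Medians for markers of layer 4/5 IT, deep IT, L5 near-projecting and L6 neurons were between 0 and 1.78. In adult, the L5 near-projecting markers summed to 10 per 10000 or more in 6.02% of members. Those of L5 pyramidal tract neurons were 3.78, 4.15, 4.02 and 2.44, of which Ldb2, with 208 CPM (P1), 265 (P4), 203 (P10) and 160.1 (Adult), held a large part. The lists for astrocytes, oligodendrocyte precursors (OPC), microglia, vascular cells and progenitors had a median of 0 at each age. The oligodendrocyte and inhibitory lists had 0 at P1 and P4. Their medians were 0.372 and 0.282 at P10 and 1.17 and 0.427 in adult. The superficial IT list thus had the largest median sum of the lists at every age, over unequal numbers of genes. It was also the largest in the comparison cells, which held Rorb at 1 per 10000 or more and had no glial or vascular RNA, with medians of 16.3, 11.3, 11.96 and 11.4 in order of age, so this order does not set the members apart from them. Members led by glial genes had high sums too. The median was 35.8 in a cluster of 27 adult members that all held glial or vascular RNA. It was 16.4 in a cluster of 58 members at P10, 98.3% of them with such RNA.

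Glial RNA reached a minority of the members and many of the cells used for comparison. Rorb cells met the same conditions but held Rorb at 1 per 10000 or more, with any Cux2, and numbered 548, 571, 391 and 531. Astrocyte markers (Aqp4, Gja1, Slc1a3, Aldh1l1, Gfap and Slc7a10) summed to 10 per 10000 or more in 0.498% (P1), 2.44% (P4), 4.99% (P10) and 3.23% (Adult) of members, and in 8.58%, 30.3%, 64.7% and 33.7% of Rorb cells. OPC markers did so in 1.33%, 4.67%, 8.26% and 2.50% of members, and oligodendrocyte markers in 7.20% of adult members. Among cells that hold an astrocyte sum of 20 per 10000, 53.6% at P1 and 29.0% in adult had a UMI of Neurod2 or Neurod6, so such UMIs were also found in cells led by astrocyte markers. Rorb at 1 per 10000 or more was held by 51.7%, 33.1%, 48.6% and 55.9% of these cells in order of age. For Cux2 at that limit the shares were 5.13%, 5.98%, 5.49% and 5.92%. At P10, 244 of the 391 Rorb cells held an astrocyte sum of 20. Cells with such a sum of 10 in any glial or vascular list were therefore left out wherever members are set against Rorb cells, which kept 590, 877, 593 and 586 members and 485, 369, 117 and 324 Rorb cells. This choice was made after the data were seen, and the counts with all cells are given beside it.

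**Figure D1:**
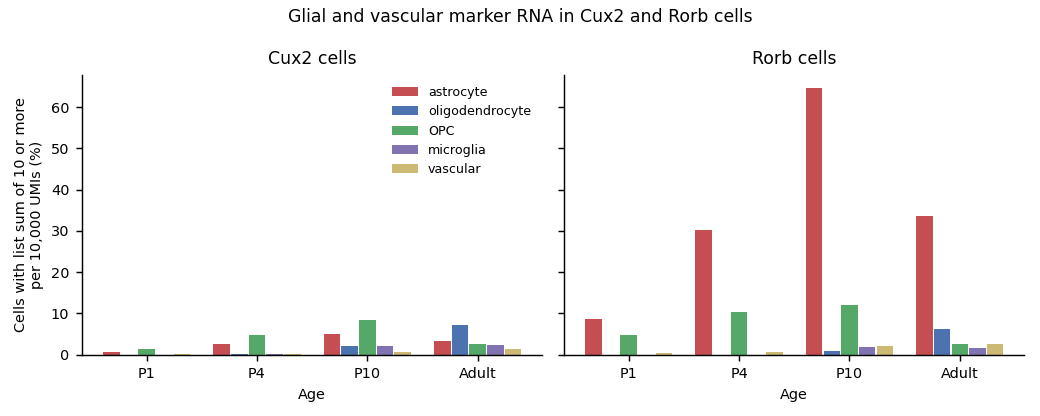
Share of Cux2 cells (left) and Rorb cells (right) in which the summed markers of a glial or vascular type reach 10 UMIs per 10000, by age (x axis, y axis in percent, 1 bar per marker list, 1 library per age). Astrocyte RNA stands at 64.7% of Rorb cells at P10 and at 4.99% of Cux2 cells.

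Levels are given as CPM from the UMIs of a gene summed over the cells of a group, with the total taken over all genes but those of mitochondria and ribosomal proteins. A gene is said to rise, fall or differ where its ratio was at least 2-fold with an interval clear of no change and the higher group held at least 20 CPM. A gene under 20 CPM in the lower group entered a count only through the group where it was higher. Counts and medians of lists are thus partly set by this limit. From P4 to adult, 1395 of 8120 genes rose in the members (17.2%) and 1637 fell (20.2%). From P4 to P10, 774 of 7849 rose (9.86%) and 659 fell (8.4%), and from P10 to adult 613 of 7658 rose (8%) and 616 fell (8.04%). The median log2 ratio of all genes was -0.15 from P4 to adult, and a list is read beside these values.

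The superficial IT markers did not move as one. Of 15 markers, 7 rose and 5 fell from P4 to adult, with a median log2 ratio of 0.33. Calb1, Wfs1, Lamp5, Otof and Stard8 (below) were under 20 CPM at P4 and could be measured only through a higher adult level. The count of rises and the median are thus partly set by the limit. Transcription factors of the list fell. Pou3f2 stood at 722 CPM (P1), 329 (P4), 131 (P10) and 61.0 (Adult), and Pou3f3 at 918 CPM (P1), 383 (P4), 148 (P10) and 70.0 (Adult), both highest at P1 and lowest in adult. Cux1, the paralog of Cux2, stood at 326 CPM (P1), 176 (P4), 80.7 (P10) and 55.9 (Adult), and Lhx2, a LIM homeodomain factor, at 279.5 CPM (P1), 277 (P4), 152 (P10) and 89.8 (Adult). The log2 ratios from P4 to adult were -2.43 (-2.55 to -2.31) for Pou3f2, -1.66 (-1.79 to -1.53) for Cux1 and -1.63 (-1.73 to -1.52) for Lhx2.

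Markers of mature layer 2/3 cells appeared late. Calb1, which encodes the calcium buffer calbindin, stood at 2.81 CPM [2.03 to 3.80] (P1), 4.76 [3.60 to 6.18] (P4), 206 [199 to 214] (P10) and 436 [424 to 448] (Adult). Wfs1, for the endoplasmic reticulum protein wolframin, stood at 1.14 CPM [0.664 to 1.82] (P1), 15.2 [13.1 to 17.6] (P4), 110.5 [105 to 116] (P10) and 384 [373 to 396] (Adult). Lamp5, a membrane protein of neuronal vesicles, stood at 0.134 CPM [0.0162 to 0.484] (P1), 0.765 [0.350 to 1.45] (P4), 105 [99.3 to 110.0] (P10) and 368 [357 to 379] (Adult). All 3 genes were higher at P10 than at P4 and higher again in adult, with intervals that do not overlap. Otof, which encodes the vesicle protein otoferlin, stood at 1.21 CPM (P1), 2.72 (P4), 15.9 (P10) and 39.5 (Adult), and Stard8, a GTPase-activating protein, at 0.268 CPM (P1), 0.595 (P4), 6.82 (P10) and 46.6 (Adult). From P4 to adult the log2 ratio was 6.52 (6.14 to 6.92) for Calb1, 4.66 (4.44 to 4.88) for Wfs1, 8.91 (7.98 to 10.04) for Lamp5 and 3.86 (3.34 to 4.42) for Otof.

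The rise of these genes was also seen as a share of cells. With members thinned to 4000 UMIs, a UMI of Calb1 was found in 1.42% at P4, 38.6% at P10 and 64.8% (61.0 to 68.4) in adult. For Lamp5 the shares were 0.327%, 24.4% and 62.3% (58.5 to 66.0), and for Wfs1 5.56%, 31.3% and 58.9% (54.99 to 62.6). Cells led by microglia markers, which should lack these genes and had a median of 4524.5 UMIs in adult, held a UMI of Calb1 in 11.003%, of Lamp5 in 10.03% and of Wfs1 in 9.17% of adult cells when thinned to 4000 UMIs. Of the microglia-marked cells, 437 of 1364 in adult and 266 of 804 at P10 were shallower and left out. Among members 20 and 21 were. The adult shares in members were above that background. At P10 the background was 9.11% for Calb1, 3.53% for Lamp5 and 5.76% for Wfs1, under the shares in members. At P4 it was 2.82%, 1.41% and 1.41%, and the shares of Calb1 and Lamp5 in members were at or under it. The P4 background rests on only 71 microglia-marked cells and is coarse.

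Of the other markers in the list, Rasgrf2, a Ras exchange factor, rose, with 86.2 CPM (P1), 146 (P4), 186 (P10) and 327 (Adult). Mdga1, an adhesion molecule that binds neuroligin, fell from P4 to adult, with 92.9 CPM (P1), 116 (P4), 74.9 (P10) and 20.99 (Adult). Enpp2, which encodes autotaxin, stood at 16.01 CPM (P1), 65.6 (P4), 455 (P10) and 455 (Adult). Nectin3, an adhesion molecule, moved by less than 2-fold, with 106 CPM (P1), 105 (P4), 161 (P10) and 132 (Adult).

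**Figure D2:**
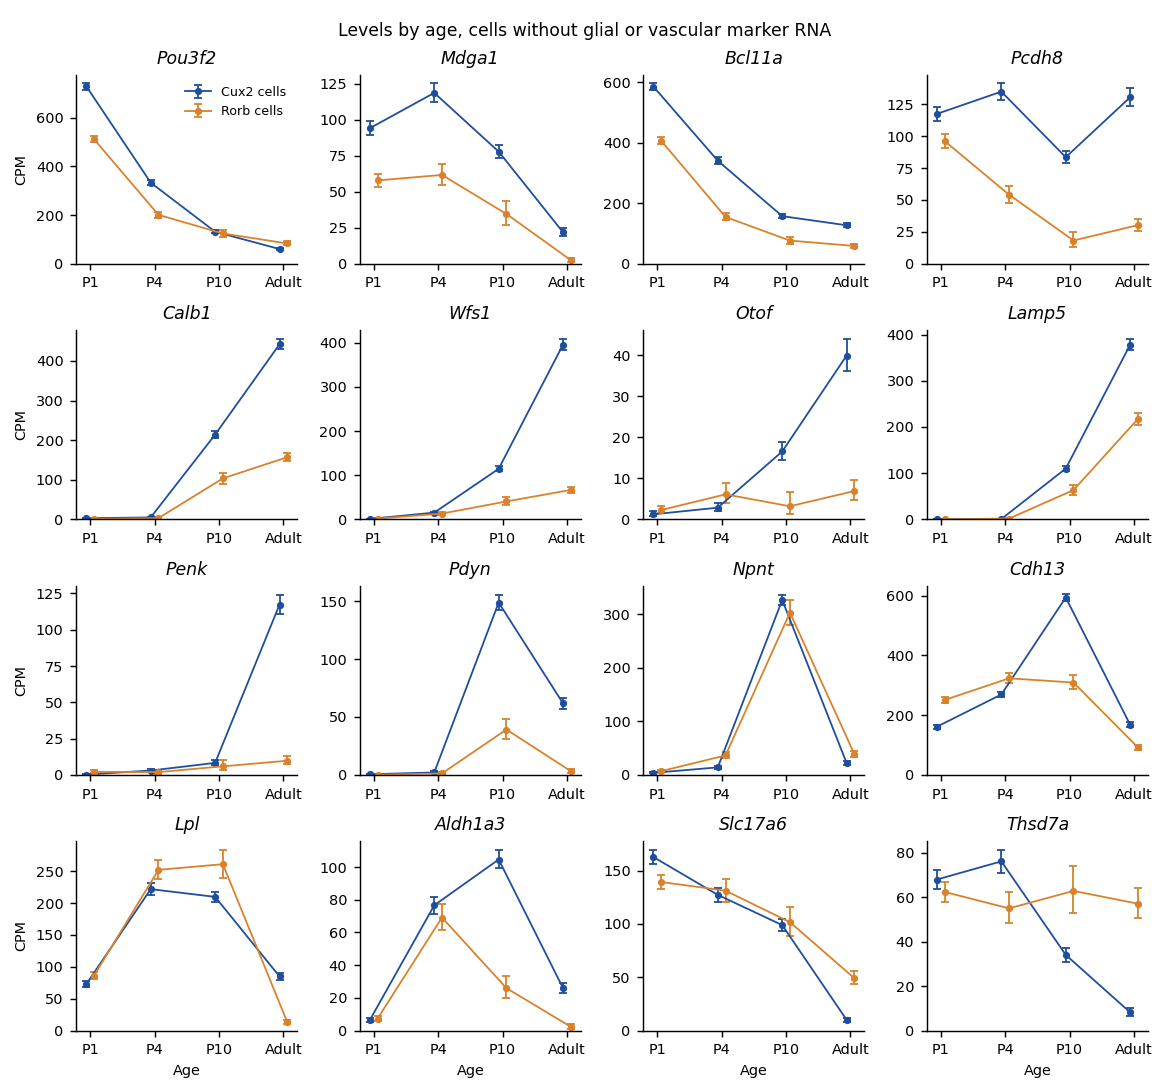
Level in CPM (y axis, linear, own scale per gene) of 16 genes by age (x axis) in Cux2 cells (blue) and Rorb cells (orange), both without cells holding glial or vascular marker RNA. Points are 1 library each and bars the 95% counting interval. Calb1, Wfs1, Lamp5 and Otof rise after P4 in Cux2 cells while Pou3f2 and Bcl11a fall.

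Transcription factors of cortical neurons fell more often than they rose. Of 22 measured members of the list, 11 fell and 3 rose from P4 to adult, with a median log2 ratio of -0.88. Nfib and Nfix, nuclear factor I proteins of cortical development, stood at 1158 CPM (P1), 355 (P4), 78.8 (P10) and 134 (Adult) and at 3075 CPM (P1), 1813 (P4), 542 (P10) and 509 (Adult). Nfib and Nfix thus ran downward from P1 to P10, and Nfib was higher in adult than at P10. Among those that rose was Klf9, a hormone-responsive zinc finger factor, with 6.03 CPM (P1), 27.4 (P4), 243 (P10) and 223 (Adult). Mef2d, an activity-dependent MADS factor, rose from 68.6 CPM at P4 to 179 in adult, while Mef2c stood at 2180.1 CPM (P1), 4029.6 (P4), 4352 (P10) and 2403 (Adult). Rora, a nuclear receptor, rose from 23.7 CPM at P4 to 77.3 CPM in adult.

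Genes of neurite growth fell as a group. All 17 genes of the list were measured, and 16 fell from P4 to adult, with a median log2 ratio of -3.59. Between P4 and P10, 12 fell (median -1.32), and between P10 and adult 15 fell (median -2.27). Tubb2b, a tubulin of growing neurons, stood at 4328 CPM (P1), 4804 (P4), 1163 (P10) and 13.1 (Adult). Dcx, a microtubule-binding protein of migrating neurons, stood at 1772 CPM (P1), 2064 (P4), 558 (P10) and 53.0 (Adult). Sox11, a factor of new neurons, stood at 2166 CPM (P1), 983 (P4), 89.0 (P10) and 31.4 (Adult). Sox11 was already lower at P4 than in the P1 library, and Tubb2b and Dcx were not. Gap43, the growth cone phosphoprotein, stood highest at P4, with 1499 CPM (P1), 5097 (P4), 3794 (P10) and 577 (Adult). So did Stmn2, a tubulin-binding protein of axons, with 1672 CPM (P1), 3359 (P4), 2846 (P10) and 603 (Adult). For both, P10 was under 2-fold lower. Cd24a, a surface glycoprotein of immature neurons, fell from 2207 CPM at P4 to 4.90 in adult. Map1b, which stabilises axonal microtubules, went from 4555 CPM at P4 to 1352 in adult.

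Of 17 presynaptic genes, 10 rose and 1 fell from P4 to adult, with a median log2 ratio of 1.26. The vesicular glutamate transporters went in opposite directions. Slc17a7 (VGLUT1) stood at 14.7 CPM [12.8 to 16.8] (P1), 87.7 [82.4 to 93.2] (P4), 974 [958 to 990.5] (P10) and 1776 [1751 to 1799.9] (Adult). Slc17a6 (VGLUT2) stood at 160.3 CPM [154 to 167] (P1), 125 [118 to 131] (P4), 96.1 [91.0 to 101] (P10) and 9.98 [8.25 to 11.97] (Adult) and was the gene of the list that fell. In the members, Slc17a7 rose mostly before P10, with a log2 ratio of 3.47 (3.38 to 3.57) from P4 to P10 and 0.87 (0.83 to 0.90) afterwards, whereas Slc17a6 changed by -0.37 (-0.48 to -0.27) and then -3.27 (-3.55 to -2.99). Snap25, a SNARE of vesicle fusion, stood at 214 CPM (P1), 345 (P4), 1609.8 (P10) and 4984 (Adult), and Syt1, the calcium sensor of release, at 439 CPM (P1), 842 (P4), 2508 (P10) and 3571 (Adult). Sv2b, a vesicle glycoprotein, rose from 60.04 CPM at P4 to 731 in adult. Cplx1 and Cplx2, complexins that clamp vesicle fusion, changed by less than 2-fold, with log2 ratios of -0.29 and 0.41.

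Of 20 postsynaptic and glutamate receptor genes, 12 rose and 0 fell from P4 to adult (median 1.15), and 9 rose by P10. Nrgn, which binds calmodulin in spines, stood at 42.2 CPM (P1), 976 (P4), 5765 (P10) and 5675 (Adult). Camk2a, the alpha subunit of the calcium kinase of spines, stood at 15.6 CPM (P1), 116 (P4), 969.6 (P10) and 1611 (Adult), while Camk2b, its partner, stood at 385 CPM (P1), 773 (P4), 1002 (P10) and 658 (Adult). The NMDA receptor subunit Grin2a stood at 30.7 CPM (P1), 36.9 (P4), 161 (P10) and 506 (Adult), and Grin2b at 564 CPM (P1), 707 (P4), 919 (P10) and 1217 (Adult). From P4 to adult Grin2a rose by 3.78 (3.64 to 3.92) on the log2 scale, while Grin2b moved by 0.78 (0.74 to 0.82), under the 2-fold limit. Grin3a peaked at P10, with 19.2 CPM (P1), 50.2 (P4), 197 (P10) and 110.5 (Adult).

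Most genes of GABA-A receptors rose. Of 13 genes for subunits and chloride transport, 8 rose and 1 fell from P4 to adult, with a median of 1.36. Gabra4, an alpha subunit, stood at 27.7 CPM (P1), 38.1 (P4), 267 (P10) and 293 (Adult). Gabra5 was the gene that fell, with 128 CPM (P1), 199.5 (P4), 293 (P10) and 77.5 (Adult). Slc12a5, which encodes KCC2, the transporter that extrudes chloride, stood at 10.8 CPM (P1), 63.6 (P4), 281 (P10) and 597 (Adult), and Slc12a2 (NKCC1), which imports it, at 71.96 CPM (P1), 68.1 (P4), 59.5 (P10) and 72.7 (Adult). From P4 to adult the log2 ratio of Slc12a5 was 3.23 (3.12 to 3.34) and that of Slc12a2 0.09 (-0.05 to 0.24).

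Of 22 measured voltage-gated channel genes, 12 rose and 0 fell from P4 to adult (median 1.25). The sodium channel Scn8a (Nav1.6) stood at 113 CPM (P1), 106 (P4), 250.1 (P10) and 473 (Adult), and Scn3a, an early sodium channel, at 249.6 CPM (P1), 190.3 (P4), 149.5 (P10) and 125 (Adult). The potassium channel Kcna2 stood at 19.97 CPM (P1), 34.9 (P4), 86.3 (P10) and 283 (Adult), and Kcnc2 (Kv3.2) at 26.8 CPM (P1), 10.97 (P4), 12.6 (P10) and 97.3 (Adult). Kcnv1, a modifying subunit, stood at 21.98 CPM (P1), 74.6 (P4), 215 (P10) and 307 (Adult). Kcnc2 changed by 0.20 (-0.14 to 0.54) on the log2 scale from P4 to P10 and by 2.95 (2.72 to 3.19) afterwards, and Kcnv1 by 1.53 (1.42 to 1.64) and 0.51 (0.44 to 0.58). Of 24 cadherins, protocadherins and contactins, 19 were measured, and 5 rose and 2 fell from P4 to adult (median 0.33). Cdh13, a cadherin anchored by a lipid, peaked at P10, with 163 CPM (P1), 267 (P4), 577 (P10) and 169 (Adult). Of 29 measured axon guidance genes, 7 rose and 8 fell (median -0.24), shares and a median near those of all genes above. Plxna4, a semaphorin receptor subunit, stood at 670.1 CPM (P1), 329.6 (P4), 134 (P10) and 132 (Adult), and the netrin receptor Unc5a at 27.7 CPM (P1), 61.9 (P4), 54.7 (P10) and 112 (Adult).

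Most of the measured neuropeptides and secreted factors rose. Of 12 measured genes of 14 in the list, 8 rose and 0 fell from P4 to adult (median 3.45), the second highest median among the 11 lists of function after the activity-regulated genes. Penk, Pdyn, Nptx1, Nrn1 and Igfbp6 were among those under 20 CPM at P4, which could be measured only through a higher adult level. The count of rises and the median are thus partly set by the limit. Penk, the enkephalin precursor (chromosome 4, 4133531 to 4138819), stood at 0.268 CPM [0.0730 to 0.686] (P1), 2.98 [2.07 to 4.14] (P4), 7.89 [6.49 to 9.50] (P10) and 111 [105 to 117] (Adult). Adult Penk UMIs came from 183 of 681 members, and the member with most held 9.32% of them. At P4, 45.7% of the Penk UMIs were in 1 member, so the P4 level without it was 1.62 CPM. Pdyn, the dynorphin precursor, peaked at P10, with 0.603 CPM [0.276 to 1.14] (P1), 2.04 [1.31 to 3.04] (P4), 142 [136 to 148] (P10) and 60.6 [56.2 to 65.2] (Adult). Cck, for cholecystokinin, stood higher at each later age, with 52.7 CPM (P1), 171 (P4), 1154 (P10) and 1873 (Adult). Nptx1, a pentraxin that gathers AMPA receptors, stood at 2.75 CPM (P1), 4.08 (P4), 26.7 (P10) and 421 (Adult), and Nrn1, a neurite-promoting surface protein, at 14.5 CPM (P1), 6.21 (P4), 125 (P10) and 619.8 (Adult). Penk and Nptx1 rose after P10, by 3.81 (3.53 to 4.10) and 3.98 (3.82 to 4.13) on the log2 scale, and Vgf, a secreted peptide precursor, rose from P4 to P10 by 3.32 (3.19 to 3.45). In adult, 12.9% (10.4 to 15.7) of members thinned to 4000 UMIs had a UMI of Penk, against 3.67% of microglia-marked cells.

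**Figure D3:**
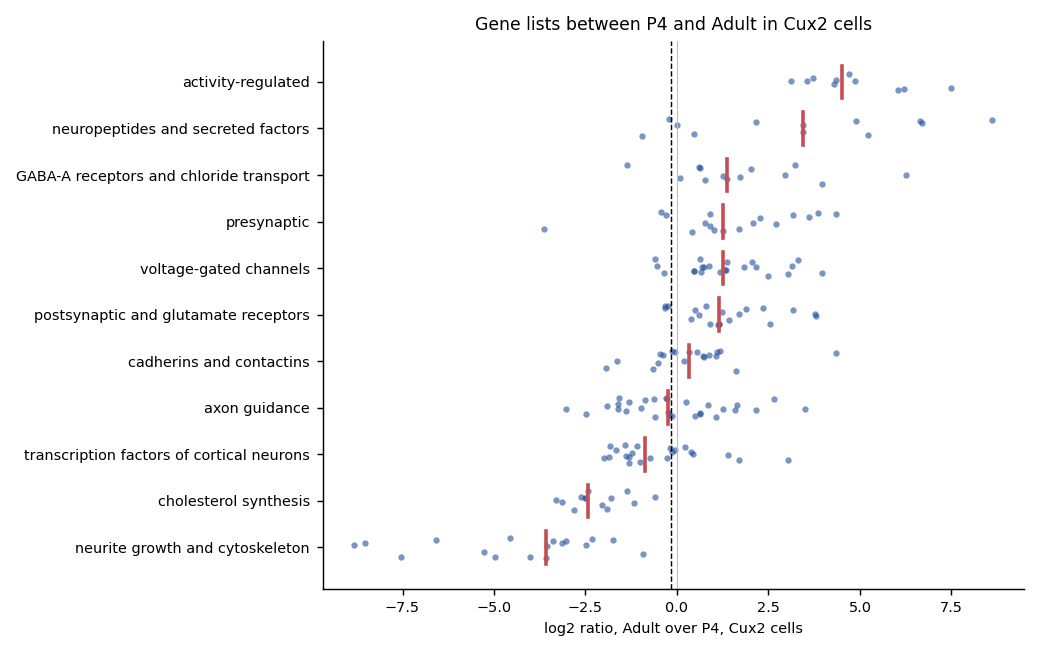
Log2 ratio of Adult over P4 in Cux2 cells (x axis) for the measured genes of 11 lists (rows). Points are genes, red bars list medians and the dashed line the median of all genes at -0.15. The neurite growth list lies lowest, at a median of -3.59, and the activity-regulated list highest, at 4.52.

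Genes induced by neuronal activity were higher at P10 and in adult than at P4. Of 12 genes, 10 were measured and all 10 rose from P4 to adult, with a median log2 ratio of 4.52, and all 8 measured from P4 to P10 rose (median 4.06). Fos, Arc, Bdnf, Nptx2 and Nr4a1 were among those under 20 CPM at P4, which could be measured only through a higher later level. These counts and medians are thus partly set by the limit. Fos, a subunit of AP-1, stood at 0 CPM (P1), 3.83 (P4), 47.3 (P10) and 50.2 (Adult). Egr1, a zinc finger factor, stood at 0.402 CPM (P1), 21.3 (P4), 362 (P10) and 549 (Adult). Arc, which acts on AMPA receptor traffic, stood at 0 CPM (P1), 0.510 (P4), 11.7 (P10) and 90.8 (Adult), and Bdnf, a neurotrophin, at 2.14 CPM (P1), 6.72 (P4), 118 (P10) and 197 (Adult). Nptx2, a pentraxin of excitatory synapses, stood at 0.603 CPM (P1), 2.47 (P4), 18.4 (P10) and 162 (Adult). Egr1 and Bdnf came up mostly between P4 and P10, by 4.09 and 4.14 on the log2 scale, and Arc and Nptx2 rose further after P10, by 2.96 (2.72 to 3.21) and 3.13 (2.95 to 3.33). The handling of tissue can induce these genes, and its part in their levels was not tested.

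Promoters of 8 of the 12 activity-regulated genes (Bdnf, Egr2, Egr4, Fos, Fosb, Junb, Npas4 and Nr4a1) were read from RefSeq on GRCm38.p6. Those of Egr1, Egr3, Arc and Nptx2 are not given. Each was searched for TGACG, the core of the site bound by CREB, and its reverse complement CGTCA, which counts the other strand, within 250 bases before and 50 after the start. Each of the 8 genes had at least 1 promoter with the motif, as did 23% of 27025 genes in the table, which differ in their number of promoters, and 20.8% of 32851 promoters. Bdnf held it in 1 of 7 promoters and Egr2 in 3 of 5, where these 3 overlap and hold the same 2 matches. A match is a description of letters and not of binding. The 250 bases before the start of 3 genes that led an adult subcluster of members are shown 5′ to 3′ with matches in capitals, for Fos at chr12:85473640-85473889, plus strand, Npas4 at chr19:4989972-4990221, minus strand, and Nr4a1 at chr15:101266596-101266845, plus strand.
Fos: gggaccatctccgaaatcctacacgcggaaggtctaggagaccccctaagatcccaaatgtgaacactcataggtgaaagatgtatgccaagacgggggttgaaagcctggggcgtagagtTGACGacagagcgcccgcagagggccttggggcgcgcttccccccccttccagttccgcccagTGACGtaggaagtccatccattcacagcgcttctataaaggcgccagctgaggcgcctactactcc
Npas4: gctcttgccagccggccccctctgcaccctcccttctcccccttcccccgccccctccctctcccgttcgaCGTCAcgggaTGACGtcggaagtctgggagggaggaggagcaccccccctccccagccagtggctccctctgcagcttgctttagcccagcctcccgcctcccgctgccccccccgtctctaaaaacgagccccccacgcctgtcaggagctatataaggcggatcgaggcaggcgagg
Nr4a1: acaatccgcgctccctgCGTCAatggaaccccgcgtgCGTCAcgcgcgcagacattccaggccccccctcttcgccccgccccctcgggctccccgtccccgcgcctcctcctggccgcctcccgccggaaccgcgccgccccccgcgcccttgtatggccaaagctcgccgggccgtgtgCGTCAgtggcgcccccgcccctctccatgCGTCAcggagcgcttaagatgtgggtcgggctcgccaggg

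Npas4 and Fos held 2 matches each in this stretch and Nr4a1 held 4. In the members, Npas4, a factor induced by calcium entry, stood at 2.14 CPM (P1), 6.12 (P4), 17.1 (P10) and 15.7 (Adult), and Nr4a1, an orphan nuclear receptor, at 9.05 CPM (P1), 12.4 (P4), 65.1 (P10) and 147 (Adult).

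Genes of cholesterol synthesis fell. Of 15 genes, 13 were measured, and 12 fell and 0 rose from P4 to adult, with a median log2 ratio of -2.43. Most of that came after P10, with 2 of 13 falling from P4 to P10 and 9 of 12 from P10 to adult. Hmgcs1, which makes the precursor of mevalonate, stood at 647 CPM (P1), 1544 (P4), 926 (P10) and 157 (Adult). Sqle, which oxidises squalene, stood at 244 CPM (P1), 311 (P4), 218 (P10) and 50.2 (Adult).

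Among genes of at least 50 CPM, the 12 largest rises of the members from P4 to adult held genes of other cell types beside neuronal ones. Of the marker lists of other cells, 5 of 5 measured oligodendrocyte and 5 of 5 microglia genes rose, 2 of 3 OPC genes and 1 of 1 progenitor gene fell, and 0 of 1 astrocyte genes moved, with no vascular gene measured. Without members holding glial or vascular RNA, 2 of 2 oligodendrocyte genes rose and no microglia gene reached the level to be measured. Those members were left out by these same lists, so lower levels of the listed genes follow from the choice. Of layer lists, 1 of 4 L5 pyramidal tract and 1 of 2 L5 near-projecting genes rose and as many fell, 1 of 1 layer 4/5 IT and 1 of 1 inhibitory genes rose, and 0 of 2 deep IT and 0 of 2 L6 genes moved. Ptgds, Mobp and Mag are genes of oligodendrocytes. Mag stood at 70.5 CPM in adult members and at 6.35 CPM in those without glial or vascular RNA, Mobp at 60.1 and 16.3, and Ptgds at 123 and 17.7. Mag and Mobp are in the lists used to leave members out, and Ptgds is not. Igkc and Igha, immunoglobulin genes of plasma cells, rested on few members. Of 2404 Igkc UMIs in adult, 59.4% were in 1 member, and of 1504 Igha UMIs, 57.3% were in 1 member and all in 11 members. Other rises were spread over many members. Cntnap1, a partner of contactin at axonal junctions, stood at 0.402 CPM (P1), 0.1701 (P4), 16.5 (P10) and 118 (Adult), with a UMI in 495 of 681 adult members. Lamp5 was found in 584 of them. Igfbp6, which binds insulin-like growth factors, had 0 UMIs at P4, where 3 UMIs would be 0.255 CPM, and 100.5 CPM (94.8 to 106) in adult, at least 8.62 higher on the log2 scale, with a UMI in 477 adult members. Gpr83, a G protein-coupled receptor, stood at 0 CPM (P1), 0.255 (P4), 0.426 (P10) and 73.2 (Adult), and Hapln4, a link protein of the extracellular matrix around neurons, at 0.134 CPM (P1), 0.425 (P4), 1.35 (P10) and 91.8 (Adult). Ankrd33b had 0 UMIs at P4 and 107 CPM (101 to 113) in adult. The RNA C130074G19Rik stood at 0.871 CPM (P1), 0.510 (P4), 5.26 (P10) and 116 (Adult).

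None of the 12 genes with the largest falls was in the glial lists. Trim67, a ubiquitin ligase of axon branching, stood at 264 CPM (P1), 292 (P4), 28.6 (P10) and 0.258 (Adult). Vash2 stood at 162 CPM (P1), 84.2 (P4), 8.53 (P10) and 0.0860 (Adult), and Igfbpl1 at 349 CPM (P1), 80.6 (P4), 1.35 (P10) and 0.0860 (Adult). Draxin, a guidance protein of commissural axons, stood at 82.3 CPM (P1), 66.5 (P4), 1.42 (P10) and 0 (Adult), with 0 UMIs in adult where 3 UMIs would be 0.258 CPM. Igfbpl1 and Draxin were nearly gone by P10, whereas Trim67 was still at 28.6 CPM. Dpysl5, a partner of tubulin in growth cones, stood at 785 CPM (P1), 1162 (P4), 491 (P10) and 6.19 (Adult), and Sla, a Src-like adaptor, at 372 CPM (P1), 393 (P4), 78.6 (P10) and 3.18 (Adult). The others, Cd24a and Tubb2b (above), Frem2, Tspan18, Rasgrp2 and Sostdc1, stood between 52.9 and 4804 CPM at P4 and between 0.172 and 13.1 in adult.

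Other genes peaked at P10. The 6 genes whose P10 level stood furthest above both P4 and Adult were Npnt, Nrip3, A830029E22Rik, Kcng1, Ramp3 and Gpr17. Npnt, a ligand of integrins in the matrix, stood at 3.95 CPM [3.01 to 5.10] (P1), 15.4 [13.2 to 17.8] (P4), 314 [305 to 324] (P10) and 22.8 [20.1 to 25.7] (Adult). Nrip3 stood at 1.54 CPM (P1), 13.5 (P4), 161 (P10) and 12.99 (Adult). Kcng1, a silent potassium channel subunit, stood at 3.22 CPM (P1), 11.9 (P4), 79.5 (P10) and 16.1 (Adult), and Ramp3, a partner of calcitonin family receptors, at 1.14 CPM (P1), 12.1 (P4), 87.8 (P10) and 21.9 (Adult). With cells thinned to 4000 UMIs, Npnt was found in 50.5% of members at P10 and in 37.4% of microglia-marked cells, and at P4 and in adult its share in members, 4.69% and 7.11%, lay under that of microglia-marked cells. At P4 only 71 microglia-marked cells were compared. Gpr17, a receptor of committed oligodendrocyte precursors, stood at 61.6 CPM at P10 and at 2.21 CPM once members with glial or vascular RNA were left out.

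Members were then set against Rorb cells of the same library. Rorb marks IT neurons of layer 4 and upper layer 5, and within each age both groups share library and pipeline. Many cells led by astrocyte markers held Rorb too, as given above. Without cells holding glial or vascular RNA, few genes differed. Higher in Cux2 cells were 9 of 7623 genes in the P1 library (0.118%), 23 of 7384 in P4 (0.311%), 88 of 7271 in P10 (1.21%) and 128 of 7123 in Adult (1.8%). The median log2 ratio of all genes was 0.01 to 0.04. Lower were 44 (0.577%), 63 (0.853%), 93 (1.28%) and 111 (1.56%). These Rorb cells numbered 485, 369, 117 and 324 in order of age, and 62 of the 117 in P10 also met the limit for Cux2. Against all other glutamatergic cells without glial or vascular RNA, 54, 52, 121 and 131 genes were higher and 246, 151, 153 and 160 lower, so an order of ages in these counts depends on the group compared. With all cells of the rule, 9 of 7826 (0.115%), 25 of 7766 (0.322%), 100 of 8027 (1.25%) and 109 of 7436 (1.47%) were higher, and 181 (2.31%), 333 (4.29%), 773 (9.63%) and 332 (4.46%) were lower. The 12 genes lowest in Cux2 cells in that form were led by Gja1, Aqp4 and Hapln1 and also held Slc1a3. Gja1, Aqp4 and Slc1a3 are genes of astrocytes, and their place here stands beside the astrocyte RNA of Rorb cells given above.

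A gene was named where its direction and an interval clear of 0 held at P4, P10 and in adult, which 185 genes did in the higher and 273 in the lower direction of 6127. The 12 of largest mean ratio in the higher direction were Pcdh8, Mdga1, Ccbe1, Luzp2, Prex1, Kirrel3, Ankrd6, Fgf10, Id2, Bcl11a, Neto2 and Wipf3, and at P1 none of them was 2-fold higher. There the log2 ratio was above 0 in 11, at 0.06 to 0.94 with an interval that spans 0 for Ankrd6 and Neto2, and below 0 for Kirrel3. Pcdh8, a protocadherin that acts in synapse adhesion, stood at 118 CPM against 96.2 at P1, 135 against 54.1 at P4, 83.5 against 18.2 at P10 and 130.5 against 30.3 in adult. Mdga1 stood at 94.3 CPM against 58.0 at P1, 119 against 61.8 at P4, 78.0 against 34.6 at P10 and 21.8 against 2.49 in adult, with a log2 ratio of 3.13 (2.33 to 4.06) in adult. Ccbe1, a secreted protein of the matrix, stood at 168 CPM against 131 at P1, 76.3 against 53.5 at P4, 49.2 against 18.2 at P10 and 48.2 against 7.48 in adult. In Mdga1 and Ccbe1 the log2 ratio was larger at P10 than at P4 and larger again in adult, while in Pcdh8 it was 2.20 at P10 and 2.11 in adult. With cells of glial or vascular RNA kept, Pcdh8 had 1.20 at P10 and 2.11 in adult, so that this contrast rests on leaving them out. Bcl11a, a zinc finger factor of cortical neurons, stood at 586 CPM against 407 at P1, 340.4 against 155 at P4, 157 against 76.6 at P10 and 127 against 58.8 in adult, with log2 ratios of 1.14 at P4, 1.04 at P10 and 1.111 in adult. Id2, an inhibitor of bHLH factors, had log2 ratios of 0.12 (P1), 1.09 (P4), 1.48 (P10) and 0.98 (Adult). Neto2, an auxiliary subunit of kainate receptors, had 0.06 (P1), 0.36 (P4), 0.85 (P10) and 1.79 (Adult), Prex1, a Rac exchange factor, 0.54 (P1), 0.56 (P4), 1.19 (P10) and 2.11 (Adult), and Wipf3, an actin regulator, 0.28 (P1), 0.43 (P4), 1.08 (P10) and 1.48 (Adult). Fgf10, a growth factor, had 0.94 (P1), 0.71 (P4), 1.68 (P10) and 1.25 (Adult), Luzp2 0.06 (P1), 0.38 (P4), 1.32 (P10) and 2.19 (Adult) and Ankrd6 0.12 (P1), 1.001 (P4), 1.74 (P10) and 0.99 (Adult). With cells of glial or vascular RNA kept, the direction turned for Luzp2 and Prex1 at P4, for Id2, Kirrel3, Luzp2 and Prex1 at P10 and for Luzp2 in adult, and the ratio of Ankrd6 at P10 was 0.76, beside the astrocyte RNA of the Rorb cells. In adult Prex1 then had 0.93 and Kirrel3 0.48. Against all other glutamatergic cells without glial or vascular RNA it turned for Bcl11a at P10 (-0.14), for Fgf10 in adult (-0.51) and for Kirrel3 at P10 (-0.22) and in adult (-0.076), and smaller ratios turned for Kirrel3 at P4 and for Neto2 at P4 and P10.

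Lower in Cux2 cells were Tox, Cnih3, Ptgfrn, Scube1, Sorcs1, Sstr2, Grm2, Ncam2, Slc24a3, Spock3, Rora and Rprm, and at P1 Cnih3, Ncam2, Slc24a3 and Spock3 were lower by 2-fold or more. The others had P1 log2 ratios between -0.94 and 0.16, with an interval that spans 0 for Scube1 and Grm2. Tox, an HMG-box factor, stood at 152 CPM against 187 at P1, 20.1 against 63.7 at P4, 12.7 against 57.0 at P10 and 21.5 against 72.8 in adult. Cnih3, which slows AMPA receptors, stood at 4.16 CPM against 11.3 at P1, 18.7 against 70.7 at P4, 54.4 against 112 at P10 and 47.0 against 191 in adult. Grm2, a presynaptic glutamate receptor, stood at 23.9 CPM against 21.4 at P1, 23.8 against 53.7 at P4, 41.1 against 146 at P10 and 80.2 against 193 in adult. Sstr2, a somatostatin receptor, had log2 ratios of -0.54 (P1), -0.87 (P4), -1.72 (P10) and -1.71 (Adult). Slc24a3, an exchanger of sodium and calcium, had -1.01 (P1), -0.90 (P4), -1.15 (P10) and -2.17 (Adult), and Rora, a relative of Rorb, -0.69 (P1), -0.84 (P4), -1.62 (P10) and -1.58 (Adult). Ncam2, an adhesion molecule, had -1.64 (P1), -1.70 (P4), -1.53 (P10) and -1.01 (Adult), Sorcs1, a sorting receptor, -0.53 (P1), -1.57 (P4), -2.11 (P10) and -0.89 (Adult), and Rprm -0.70 (P1), -0.78 (P4), -1.85 (P10) and -1.38 (Adult). Scube1 had -0.08 (P1), -0.77 (P4), -2.27 (P10) and -1.60 (Adult), Ptgfrn -0.94 (P1), -0.91 (P4), -2.13 (P10) and -1.67 (Adult) and Spock3 -1.06 (P1), -1.39 (P4), -1.39 (P10) and -1.32 (Adult). Against all other glutamatergic cells without glial or vascular RNA, Grm2 turned to 0.24 in adult, and Rora turned at P4.

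**Figure D4:**
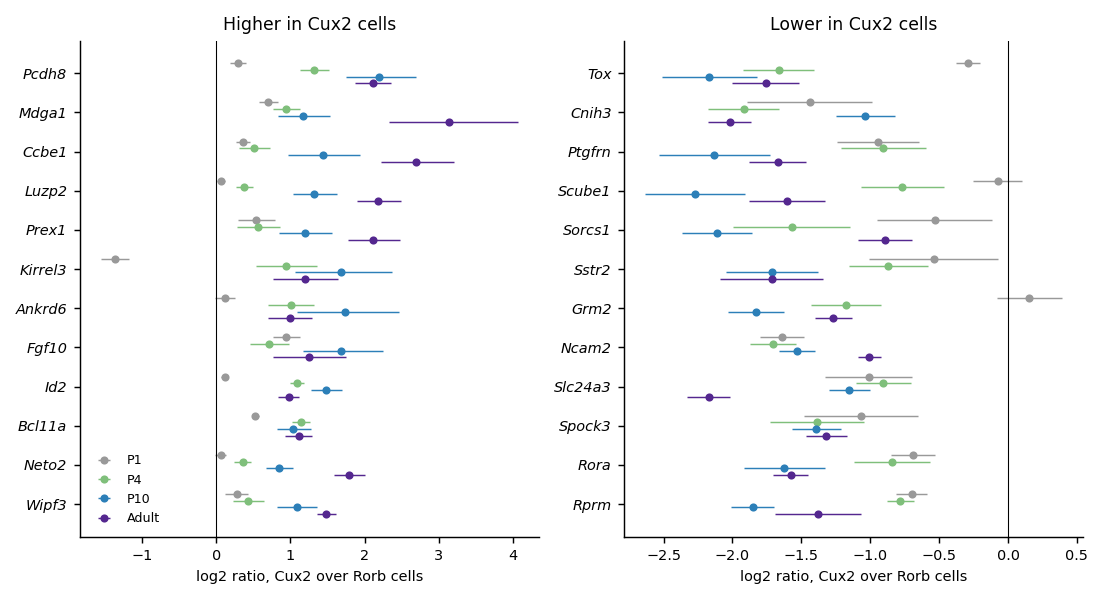
Log2 ratio of Cux2 over Rorb cells (x axis) for the 12 genes named in each direction (rows), without cells holding glial or vascular RNA. Points are ages, each from 1 library, and lines the 95% counting interval. P1, in grey, was not used to choose the genes, and Kirrel3 (-1.37) and Grm2 (0.16) lie on the other side of 0 there.

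Marker lists were read the same way. Of superficial IT markers, those higher in Cux2 than in Rorb cells were 0 of 8 measured (P1), 0 of 10 (P4), 4 of 13 (P10) and 9 of 15 (Adult), with medians of 0.34, 0.36, 0.11 and 1.24. Cux1 had log2 ratios of 0.83 (P1), 0.90 (P4), 0.11 (P10) and -0.17 (Adult) and Pou3f2 of 0.51 (P1), 0.73 (P4), 0.08 (P10) and -0.46 (Adult). Neither was higher in adult Cux2 cells, and the 9 that were included Wfs1, Otof and Calb1, which rose late in the members. Wfs1 stood at 1.09 CPM against 1.76 at P1, 15.2 against 13.05 at P4, 114 against 40.6 at P10 and 396 against 66.7 in adult, with a log2 ratio of 2.57 (2.41 to 2.73) in adult. Otof had 2.53 (2.04 to 3.07) and Calb1 1.49 (1.39 to 1.60) in adult. Lamp5 had 0.80 (0.70 to 0.90), under the 2-fold limit. Plxnd1, a semaphorin receptor of the list, was lower at P4, with log2 ratios of -1.78 (P1), -1.14 (P4), -0.63 (P10) and -0.995 (Adult). Of layer 4/5 IT markers, 3 of 3 measured in adult were lower in Cux2 cells, of deep IT markers 2 of 3, and of L6 markers 1 of 3, Hs3st4, with -1.961 (-2.25 to -1.67). Of other marker lists, 1 of 1 measured L5 near-projecting gene was higher in adult, and L5 pyramidal tract (4 measured), inhibitory (1) and oligodendrocyte (2) genes did not differ. Kcnh5, a potassium channel of the layer 4/5 list, stood at 13.2 CPM against 12.3 at P1, 10.7 against 16.1 at P4, 33.5 against 108 at P10 and 45.9 against 178 in adult.

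Lists of function are read beside the shares of all genes in adult, 1.8% higher and 1.56% lower. In adult, 0 of 14 neurite growth genes, 0 of 13 GABA-A genes and 0 of 10 cholesterol genes differed. Of 26 axon guidance genes, 2 were higher and 3 lower. Higher were the receptor Nrp2, with a log2 ratio of 1.08 (0.82 to 1.34), and the ephrin Efnb3, with 1.107 (0.87 to 1.35). Lower were the semaphorins Sema3c and Sema3e and the netrin relative Ntng1, with -1.69, -1.29 and -1.09. Of 21 transcription factors, Bcl11a was higher and Rora and Zfpm2 (-1.105) were lower. Of 20 cadherins and contactins, 1 was higher (Pcdh8) and 1 lower (Cdh20) in adult, and 2 were higher and 4 lower at P10, beside 1.21% and 1.28% of all genes. At P10 Pcdh8 and Pcdh7 (1.13) were higher, and Cdh20, Pcdh9, Cntn4 and Cntn6 lower, at -1.42, -1.03, -1.26 and -1.07. Of 20 postsynaptic genes, 1 was higher in adult. Among 17 presynaptic genes, Cplx2 was higher, with 261 CPM against 268 at P1, 463 against 453 at P4, 497 against 109 at P10 and 612 against 140.3 in adult, and Slc17a6 lower, with 163 CPM against 139 at P1, 127 against 131 at P4, 98.9 against 102 at P10 and 10.002 against 49.1 in adult. At P4, 0 presynaptic genes were higher and 2 were lower in Cux2 cells. One was Slc17a7, with a log2 ratio of -1.06 (-1.19 to -0.92) at P4 and -0.18 (-0.21 to -0.14) in adult. Of 24 channel genes, Scn4b, a sodium channel beta subunit, was lower in adult, with 8.17 CPM (6.53 to 10.1) against 40.4 CPM (35.2 to 46.3). Neuropeptide genes were higher in 3 of 12 and lower in 0 in adult. Penk stood at 0.273 CPM against 2.10 at P1, 3.03 against 1.957 at P4, 8.31 against 5.92 at P10 and 117 against 9.78 in adult, with an adult ratio of 3.59 (3.18 to 4.02). Pdyn stood at 0.613 CPM against 0.252 at P1, 2.14 against 1.30 at P4, 149 against 39.2 at P10 and 61.6 against 3.26 in adult, with 4.24 (3.55 to 5.03) in adult. Igfbp4, which binds insulin-like growth factors, had -0.34 (P1), 0.09 (P4), 0.90 (P10) and 1.53 (Adult). Of 11 activity-regulated genes measured in adult, Nptx2 was higher, with 1.68 (1.496 to 1.87), while Fos had -0.63 (-0.81 to -0.44) and Arc -0.73 (-0.87 to -0.60), both under the limit.

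The change with age was compared with that in Rorb cells, as the difference of the log2 ratios of Adult over P4. Of 4836 genes compared, 118 differed by 2-fold or more toward Cux2 cells and 34 toward Rorb cells, with approximate intervals clear of 0. With all cells of the rule the counts were 133 and 47. Lpl, which frees fatty acids from lipoproteins, changed by -1.39 in Cux2 and -4.25 in Rorb cells on the log2 scale, a difference of 2.87 (2.50 to 3.23). Aldh1a3, which makes retinoic acid, changed by -1.57 and -4.91, a difference of 3.34 (2.49 to 4.20). Aldh1a3 was alike in both groups at P4, with 76.6 against 69.2 CPM, and stood at 105 against 26.0 at P10. Nptx2 rose in both, by 7.60 and 3.95, a difference of 3.65 (2.49 to 4.80). With all cells of the rule Nptx2 changed by 6.03 and 2.38, a difference of 3.65. Rasal1, which turns off Ras, Ccnd2, a cyclin, and Rgs8, a regulator of G proteins, also moved further up in Cux2 cells, with differences of 2.51 (2.02 to 2.99), 2.50 (2.11 to 2.88) and 2.49 (1.59 to 3.38). With all cells of the rule the difference of Ccnd2 was 4.07 (3.83 to 4.31), with changes of 2.17 in Cux2 and -1.90 in Rorb cells.

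Toward Rorb cells, the largest difference was that of Thsd7a, which changed by -3.22 in Cux2 and 0.05 in Rorb cells, a difference of -3.27 (-3.68 to -2.87). Slc17a6 changed by -3.67 in Cux2 and -1.42 in Rorb cells, a difference of -2.25 (-2.61 to -1.89), and adult Rorb cells held 49.1 CPM (43.2 to 55.5) against 10.002 CPM (8.17 to 12.1). Abracl differed by -2.53 (-3.08 to -1.98), Sfrp1, an antagonist of Wnt, by -1.805 (-2.26 to -1.35), and Slit2, a repellent of axons, by -1.74 (-2.19 to -1.29). For Arhgap28, with 1 UMI in adult Cux2 cells and 0 in adult Rorb cells, no difference is given.

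The members of each library were also divided by their own expression into Leiden clusters, 5 for P1, 8 for P4, 7 for P10 and 9 for Adult. Clusters are numbered, were given no name, and are described by the 10 leading genes, which are no finding about them. Some were led by genes of other cell types. Hemoglobin genes led 134 members at P1, and 45 at P4 had Hba-a1 first and no other hemoglobin gene among their leading genes. At P1, 81 members were led by Pdgfra, Gpr17 and Ednrb, and 13.6% of them held glial or vascular RNA. At P4, 36 members were led by Reln, Nhlh2 and Rgs5, with Lhx6 and Ndnf of inhibitory neurons among their leading genes, a median of 4.56 UMIs per 10000 of inhibitory markers and 9 Scrublet marks. Another 61 P4 members were led by Pdgfra and Olig2 and 91.8% of them held glial or vascular RNA. At P10, 32 members were led by Aqp4 and Gja1, 14 by Cx3cr1 and Csf1r and 58 by Mobp, Mag and Pdgfra. In adult, 27 had Cldn11, Mal and Mag among their leading genes, and 29 were led by Ednrb and Pdgfra and 31 by Igha, Igkc and P2ry12. Scrublet, a caller of doublets, marked 4, 32, 24 and 43 members in order of age, of which 11, 13 and 17 were in these last 3 adult clusters. Slc17a7 stood at 144 CPM in the 58 members at P10, against 551 to 1262 CPM in the other P10 clusters.

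The remaining adult clusters split the late markers. A cluster of 85 members led by Scn7a, Sulf2 and Slc24a3 held 107 CPM of Calb1, 79.9 of Wfs1 and 4.29 of Otof. A cluster of 85 members led by Nnat, Dio3 and Cdh13 held 446 CPM of Calb1, 546 of Wfs1, 104.5 of Otof and 629 of Cdh13. Its median sum of L5 near-projecting markers, 7.55 per 10000, was the highest of the adult clusters, while Tshz2 of that list stood at 4.67 CPM. The cluster led by Scn7a also had Cnih3 and Ptgfrn among its leading genes, which stood lower in Cux2 than in Rorb cells above. Its median sum of superficial IT markers, 9.87 per 10000, was the lowest of the adult clusters. Its median sum of layer 4/5 IT markers, 1.97, was the highest. Penk is a leading gene of 2 clusters, so its levels there only describe them. It stood at 399 CPM in a cluster of 77 members led by Fos, Npas4, Fosl2 and Penk, at 165.5 in 108 members led by Ccnd1, Ddit4l and Igfbp4, and between 3.73 and 99.1 CPM in the other 7.

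At P10, 35 members led by Csrp2, Trim67 and Nnat held 3241 CPM of Tubb2b and 24.2 CPM of Calb1, while 132 members led by Calb1, A830029E22Rik and Plagl1 held 996 and 324 CPM. The 223 members led by Grm2, Cadps2 and Kcnh5 held 590.4 CPM of Tubb2b and 319 of Cdh13, and the 208 led by Aldh1a3, Ntsr1 and Ndrg1 held 1646 and 819 CPM. Tubb2b thus stood highest in the P10 cluster where Calb1 was lowest among these 4. The largest, of 223 members, was led by Grm2 and Kcnh5, which stood lower in Cux2 than in Rorb cells at P10 above. Its median sum of layer 4/5 IT markers, 0.559 per 10000, was the highest of the P10 clusters. At P1, Foxp1, a forkhead factor, stood at 423 CPM in 134 members led by Timp3, Igfbp5 and Nrgn and at 42.0 to 193 CPM in the other 4 clusters, and Pou3f2 at 467.5 CPM in the former and at 596 to 1281 in the others, the highest being the cluster of 81 led by Pdgfra and the next, at 1079, that led by hemoglobin genes.

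**Figure D5:**
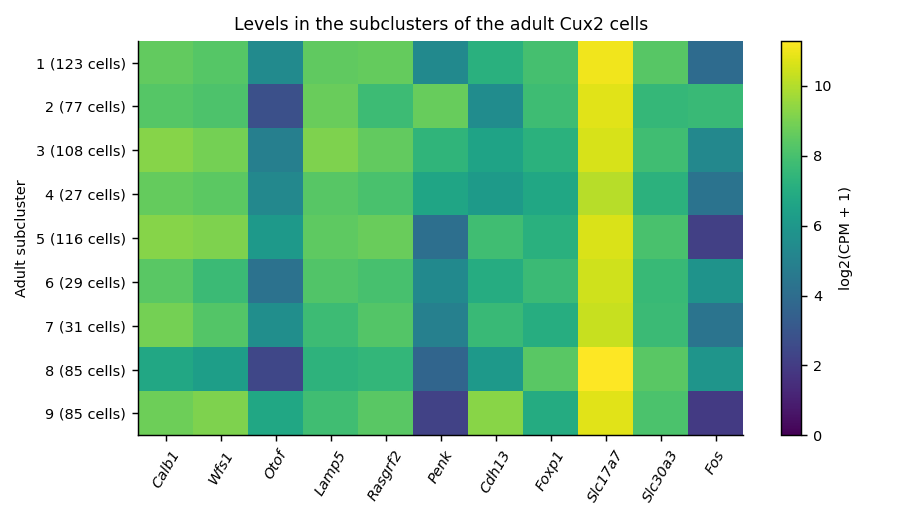
Level of 11 genes (columns) in the 9 Leiden clusters of adult Cux2 cells (rows, with the number of cells), as log2(CPM + 1) on the colour scale. Otof and Wfs1 are lowest in cluster 8 and Otof highest in cluster 9, and Penk and Fos are highest in cluster 2, where both are among the leading genes.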

How the data were processed

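RNA of PFC cells was counted at 4 ages, with 1 library per age. Per the file headers, the matrices deposited are UMI counts made with the BD Rhapsody pipeline, in a later version for P1 with the exclusion of intronic reads off, on GRCm38 with GENCODE vM19. The matrices hold whole-number counts of 200198548 to 340724049 UMIs per library, corrected for amplification by the pipeline. No cell in the files was mapped to a mouse.

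Cells were filtered and members chosen by the rule in the text, with Python 3.11.15, NumPy 2.4.6, pandas 2.3.3, SciPy 1.17.1 and Scanpy 1.11.5. Members and gene lists were chosen with earlier results of these data known. UMIs were summed over the members of a library, leaving out 117 mitochondrial and ribosomal protein genes, and given as CPM with exact Poisson intervals. Log2 ratios have exact conditional binomial intervals and shares Clopper-Pearson intervals, while those of differences in age change are approximate, all at 95% and for counting error only. A difference was called at 2-fold or more, with an interval clear of 0 and at least 20 CPM in the higher group. A group without a UMI was set to a floor of 3 UMIs. No test was made, because each age is 1 library. The scripts were tested on simulated data.

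Genes were named as the 12 of largest mean Cux2 over Rorb ratio each way, of 20 CPM or more, that held at P4, P10 and Adult. Those of 50 CPM or more were named as the 12 largest rises and falls from P4 to adult, the 6 highest P10 peaks and the 6 largest differences in age change each way. Genes of the layer, glial and function lists were named as largest, smallest or best known for their role, and the lists described by counts and medians. Some members of the lists are not reported here. Genes named for leading a subcluster were chosen after their values were seen. Doublets were marked with Scrublet (rate 0.06) and kept. Members were clustered per library with 2000 variable genes, 20 components, 15 neighbours and Leiden resolution 0.5. Cells of 4000 UMIs or more were thinned to 4000 UMIs for shares. This left out 4 to 25 shallower members and 0 to 437 microglia-marked cells per age. Alternatives covered the rule's limits, filters, thinning, the comparison group and the minimum level.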

Additional observations from a re-analysis of the deposited data

Results flagged for a closer look

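Ccnd2, Kirrel3 and Zcchc12 lay on opposite sides of 0 at different ages in the log2 ratio of Cux2 over Rorb cells without glial or vascular RNA, each by at least 2-fold with counting intervals clear of 0. The difference between ages was not tested, since each age is 1 library. Ccnd2, a cyclin, had a log2 ratio of -1.10 at P4, 2.25 at P10 and 1.39 in adult. With glial or vascular RNA kept it was -2.92, 0.55 and 1.15. Kirrel3, an adhesion molecule, had -1.37 at P1, 1.68 at P10 and 1.19 in adult. With glial or vascular RNA kept it was -1.33, -0.21 and 0.48, and against all other glutamatergic cells -0.22 at P10 and -0.076 in adult, so that its opposite sides rest on the cells compared. Zcchc12, a zinc finger protein, had -2.03 at P1, 1.16 at P10 and 1.66 in adult. The values of Kirrel3 and Zcchc12 on the lower side rest on P1, the library that was processed differently.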

How the results depend on the processing

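Between ages, no paired analysis was possible because each age has 1 library, so that groups share no second replicate number. Cux2 and Rorb cells share each library, and a test over the 4 libraries as pairs was not run, as they are different ages and not replicates. Leaving out a replicate could not be done for the same reason. Among counts and shares, 149 values under alternatives stayed within the counting interval (shares) or within 1.5 times the main value (counts) and 51 did not. Of the single genes, 901 values stayed, 505 moved without turning a difference of 2-fold or more, and 27 such differences changed direction. The cause of each was not tested beyond what the alternative itself changes.

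The share of members among glutamatergic cells was 8.26% at P1, 8.63% at P10 and 8.61% in adult with cells thinned to 4000 UMIs. With Cux2 at 2 per 10000 it was 3.09%, 2.51%, 2.36% and 4.19% in order of age. In adult it was 8.12% with Neurod2 and Neurod6 at 2 per 10000 and 10.4% without cells of glial or vascular RNA. With a minimum of 5 CPM, 1227 genes were higher and 1089 lower at P10 than at P4, and 945 higher and 1097 lower in adult than at P10. P1 members fell into 11 clusters at Leiden resolution 1.0.

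Against Rorb cells, with all cells of the rule, the number of genes higher in Cux2 cells at P1 was 22 with thinning, 16 with Cux2 at 2 per 10000, 47 against all other glutamatergic cells, 30 against Rorb cells with low Cux2 and 17 at 5 CPM. At P4 it was 47 against all other glutamatergic cells and 48 at 5 CPM, at P10 160 with thinning, 281 against Rorb cells with low Cux2 and 221 at 5 CPM, and in adult 203 at 5 CPM. Lower at P1 were 72 with thinning, 52 with Neurod genes at 2 per 10000, 44 without glial or vascular RNA, 278 against Rorb cells with low Cux2 and 544 at 5 CPM. Without glial or vascular RNA, 63 were lower at P4, 93 at P10 and 111 in adult, against all other glutamatergic cells 157, 148 and 199, and at 5 CPM 789, 1448 and 709.

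In the form without glial or vascular RNA, an alternative chosen after seeing the data, 54 genes at P1 and 52 at P4 were higher against all other glutamatergic cells, and 31 at P1 against Rorb cells with low Cux2. Lower with those cells kept were 181 (P1), 333 (P4), 773 (P10) and 332 (Adult). Lower against all other glutamatergic cells were 246 at P1, 151 at P4 and 153 at P10, and 95 at P1 against Rorb cells with low Cux2. Genes whose change with age differed toward Rorb cells were 71 against Rorb cells with low Cux2, with glial or vascular RNA kept.

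Differences of 2-fold or more turned as follows, as log2 ratios. Against all other glutamatergic cells, Bcl11a was -0.14 at P10 in both forms, Fgf10 -0.51 in adult, Grm2 0.24 in adult and Kirrel3 -0.22 at P10 and -0.076 in adult. With glial or vascular RNA kept, Id2 was -0.50, Kirrel3 -0.21, Luzp2 -1.78 and Prex1 -0.35 at P10, and Luzp2 -1.09 in adult. Smaller differences also turned, among them Luzp2 (-0.51) and Prex1 (-0.53) at P4. With those cells removed, genes that had been lowest in Cux2 cells stood under 20 CPM in both groups, too low to be called, with log2 ratios above 0. Of these genes, Aqp4, Gja1 and Slc1a3 are in the astrocyte list by which cells were removed. At P1 Aqp4 was 1.02. At P4 Hapln1 was 1.03 and Lfng 0.21. At P10 AI464131 was 0.59, Fgfr3 0.74, Gja1 0.20, Mfge8 0.072, Pla2g7 2.01, S1pr1 0.27 and Slc1a3 0.61. In adult Aqp4 was 0.25, Hapln1 1.005, Mfge8 0.25, Pla2g7 0.91, S1pr1 0.36 and Slc1a3 0.28.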
